A study of Oryza sativa with 27 samples.

Results

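OsMET1b and DNG701 are a pair of rice genes with opposite roles in DNA methylation: OsMET1b codes for a DNA methyltransferase, and DNG701 codes for a DNA glycosylase that removes methylated cytosine. They were chosen by gene identity, and every probe set that the array's annotation pairs with either gene alone was taken. This gave 3 probe sets, 1 for OsMET1b (LOC4342575) and 2 for DNG701 (LOC4338940), from an array whose probe sets with 1 annotated gene reach 17905 genes.

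In plants, the MET1 methyltransferases copy methylation of CG sites onto the newly made strand when DNA is replicated. DNA glycosylases of the DEMETER and ROS1 type cut 5-methylcytosine out of DNA, after which base excision repair fills the gap with an unmethylated cytosine. Both activities shape methylation in seeds: in rice, as in Arabidopsis, the endosperm has less DNA methylation than the embryo.

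The series followed rice (Oryza sativa) ovaries from before pollination to 4 days after pollination (DAP), on field-grown plants under normal conditions. Each ovary was cut into a bottom 1/4, which holds the embryo, and a top 3/4, which holds mostly endosperm, and both parts were profiled unpollinated and at 1, 2, 3 and 4 DAP. The 27 arrays form 10 groups of 3, except that only 2 arrays each were made of the top part at 1, 2 and 3 DAP. The labels number the arrays of a group as biological replicates and name no cultivar, plant or panicle, so p-values measure only the spread between these samples. All groups were intact ovary tissue with maternal layers included, and in such bulk samples fewer cells of a type and less RNA per cell cannot be told apart.

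The values are array signals, with each array divided so that its 75th percentile equals 1. A signal of 5 is therefore 5 times that percentile on the same array. Signals of different probe sets are not compared with each other. Where the arrays of groups are said not to overlap, this only describes them. In groups of 2 or 3 arrays it can arise by chance, and its share over all probe sets is not given. Within-group correlations of log2 signal ran from 0.863 to 0.978 over 24 pairs, and no pair of arrays was identical. Replicate 3 of the bottom part at 2, 3 and 4 DAP lay farthest from the mean of its own group. Its root mean square log2 deviation was 0.516 at 3 DAP and 0.484 at 4 DAP. At 2 DAP it was 0.367, close to the 0.357 of replicate 2 and below the 0.380 of replicate 1 at 3 DAP. Results that rest on these 3 arrays, named below as the bottom arrays that stood apart, are given with and without them. The 18S ribosomal control signal ran from 0.187 to 38.1 across arrays and was above 2 on 13 of them.

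Marker transcripts only partly followed the labelled parts. OSH1, a homeobox gene of the shoot meristem and embryo, had a mean signal of 20.9 ± 3.69 (SD, n = 3) in the bottom part before pollination and 3.76 ± 1.12 (SD, n = 3) at 4 DAP, against 0.345 ± 0.0804 (SD, n = 3) in the unpollinated top part. It was therefore high before an embryo existed. OsLFL1, an embryo regulator, stayed between group means of 0.267 and 0.639. Wx, the starch synthase that makes endosperm amylose, reached 43.3 ± 16.5 (SD, n = 3) in the top part at 4 DAP, from 0.183 ± 0.104 (SD, n = 3) when unpollinated. It also reached 14.6 ± 3.15 (SD, n = 3) in the bottom part at 4 DAP, so endosperm transcripts were present in both parts.

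OsMET1b rose after pollination in both parts, was highest at 1 DAP, and remained above the unpollinated level to 4 DAP. It is one of the MET1-type methyltransferases of rice, and its probe set had a mean signal of 4.25 over all arrays, at the 91.9th percentile of rice probe sets. In the bottom part, the unpollinated arrays read 1.37, 1.35 and 0.569. At 1 DAP they read 4.69, 6.09 and 6.46. Every bottom array at 1 DAP was thus above every unpollinated one. At 2 DAP the bottom arrays read 4.14, 4.95 and 2.33. At 3 DAP they read 3.73, 1.85 and 2.31, and at 4 DAP they read 3.55, 3.20 and 2.82. The 3 later groups also lay wholly above the unpollinated arrays, with the spread widest at 2 DAP.

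In the top part, the unpollinated arrays read 1.46, 2.67 and 1.42 for OsMET1b. The arrays at 1 DAP read 11.7 and 7.79, and the first of these was the highest OsMET1b signal of the series. At 2 DAP they read 6.85 and 5.76. At 3 DAP they read 3.82 and 3.97, the tightest pair of the course. At 4 DAP they read 5.77, 5.23 and 8.94. No top array after pollination fell within the range of the unpollinated ones.

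**Figure D1:**
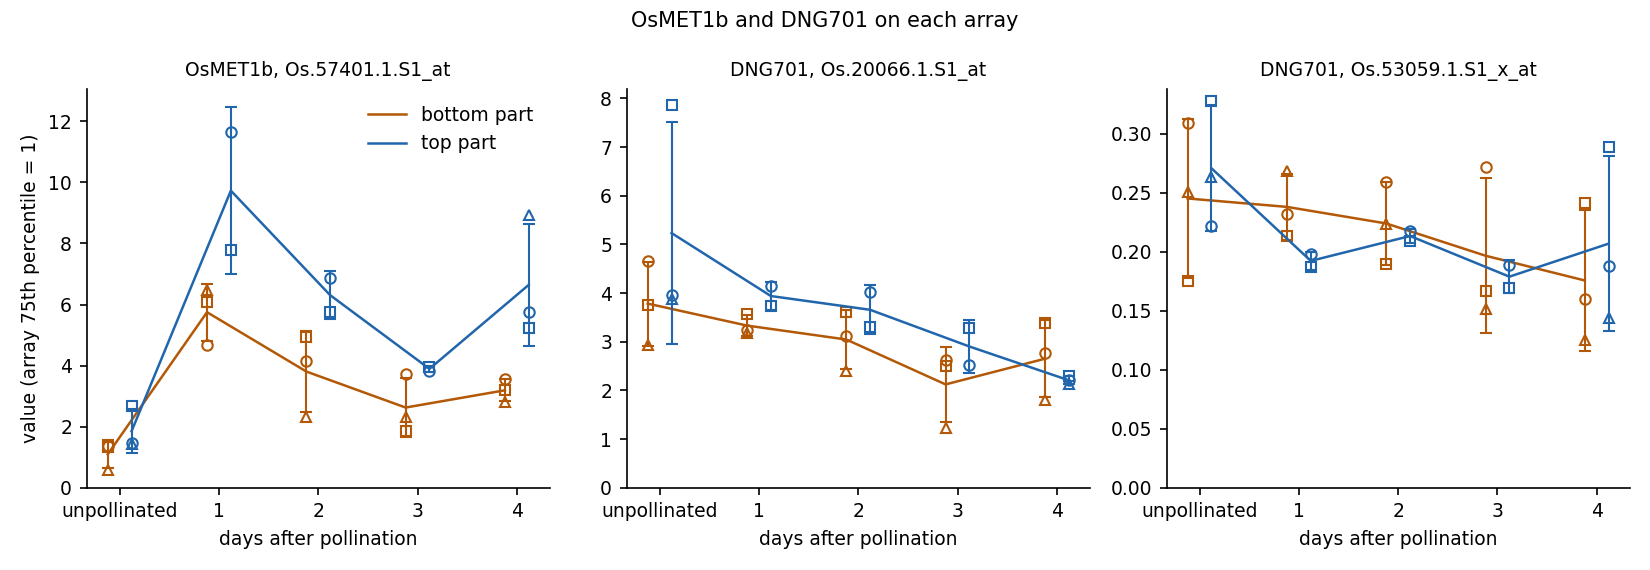
Array signals of the 3 probe sets (vertical axes, in multiples of the array's own 75th percentile, each panel with its own scale) at the unpollinated stage and at 1 to 4 DAP, for the bottom and the top part. Marker shapes are the arrays of a group, lines join group means and bars are the SD: OsMET1b rises from means of 1.10 and 1.85 to 5.75 and 9.73 at 1 DAP, while DNG701 goes down towards 3 and 4 DAP.

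The changes were tested with limma in 1 fit over all 27 arrays, on log2(signal + 0.13), with Benjamini-Hochberg adjustment over 29301 probe sets and a call at an adjusted p under 0.05. On this scale, which understates the change of low signals, OsMET1b was higher than unpollinated in all 8 comparisons. In the bottom part it rose by 2.33 ± 0.33 (SE) at 1 DAP, or 5.03-fold (limma adjusted p = 3.12e-05), when 7.8% of all probe sets were called higher. The increase was 1.70 ± 0.33 at 2 DAP (adjusted p = 0.00103) against a background of 7.81% called higher. It was 1.19 ± 0.33 at 3 DAP (adjusted p = 0.0156) against 8.35%, and 1.52 ± 0.33 at 4 DAP (adjusted p = 0.00200) against 12%. The 4 increases thus lay between 2.29-fold and 5.03-fold.

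In the top part, OsMET1b rose by 2.34 ± 0.37 (SE) at 1 DAP, or 5.07-fold (limma adjusted p = 1.48e-04), when 9.84% of all probe sets were called higher. It rose by 1.75 ± 0.37 at 2 DAP (adjusted p = 0.00226) against 10.2%, and by 1.79 ± 0.33 at 4 DAP (adjusted p = 2.40e-04) against 18.1%. The increase at 3 DAP was 1.08 ± 0.37 (adjusted p = 0.0347) against 14.1%. That call depended on 4 arrays, with an adjusted p of 0.0967 without unpollinated replicate 1, 0.109 without unpollinated replicate 3, 0.162 without 3 DAP replicate 1 and 0.127 without 3 DAP replicate 2. Leaving out unpollinated replicate 3 (0.83, adjusted p = 0.102) or 3 DAP replicate 1 (0.92, adjusted p = 0.0842) ended the 3 DAP call in the bottom part. The calls at 1, 2 and 4 DAP held in both parts when any array of the comparison was left out. Without the 3 bottom arrays that stood apart, the bottom increases were 2.01, 1.26 and 1.60 at 2, 3 and 4 DAP, all of them called. Both top arrays at 3 DAP had high 18S signals, 23.6 and 29.5 against 0.346 to 1.22 in the unpollinated top arrays, and the part of this in the result was not tested beyond the fit with 18S as a covariate (1.11, adjusted p = 0.0566).

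After the highest point of OsMET1b at 1 DAP, no step from one day to the next was called. From 1 to 2 DAP the difference was -0.63 in the bottom part and -0.59 in the top part. From 2 to 3 DAP it was -0.51 and -0.67, and from 3 to 4 DAP it was 0.32 and 0.71, with limma adjusted p values from 0.560 to 0.979 over the 6 steps. Few probe sets passed in these steps: 0.969%, 0.0683% and 0.0102% in the bottom part and 0.918%, 2.2% and 0.181% in the top part. The change from 1 to 3 DAP was not tested. These days had the highest and the lowest OsMET1b mean after pollination in both parts. A lack of overlap between days picked in this way does not stand in for a test. The OsMET1b arrays of these days did not overlap. They read 4.69 to 6.46 and then 1.85 to 3.73 in the bottom part, and 7.79 to 11.7 and then 3.82 to 3.97 in the top part. In order of mean signal, the groups ran top 1 DAP, top 4 DAP, top 2 DAP, bottom 1 DAP, top 3 DAP, bottom 2 DAP, bottom 4 DAP, bottom 3 DAP, top unpollinated and bottom unpollinated. Neighbours in that order overlapped, with 2 exceptions: the bottom 1 DAP arrays lay wholly above the top 3 DAP arrays, and the top unpollinated arrays wholly above the bottom unpollinated ones.

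OsMET1b had the higher signal in the top part at each of the 5 stages, but no single stage passed the test. The arrays of the parts did not overlap at any stage, which is a description without its share over all probe sets. The differences between top and bottom were 0.72 ± 0.33 (SE) unpollinated, and then 0.73, 0.77, 0.60 and 0.99 at 1 to 4 DAP, with limma adjusted p values from 0.121 to 0.443. The share of probe sets called between the parts was 15% unpollinated and 4.06%, 1.49%, 5.38% and 2.57% at 1 to 4 DAP. The 95% interval at 4 DAP, 0.31 to 1.68, bounds that difference. A contrast of the mean over the 5 stages, added after the values of each stage had been seen, gave 0.76 ± 0.16 (SE), or 1.70-fold higher in the top part (limma adjusted p = 9.01e-04). In that contrast 19.5% of probe sets were called higher in the top part. Of the lists described below, 16 of the 17 replication fork genes tested were also called higher there, with a median difference of 0.70. So were 4 of the 5 DNA methyltransferases tested, OsMET1b among them.

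The increase since the unpollinated stage was not shown to differ between the parts for OsMET1b. The increase in the top part minus that in the bottom part was 0.01 at 1 DAP, 0.05 at 2 DAP, -0.12 at 3 DAP and 0.28 at 4 DAP, with limma adjusted p values from 0.850 to 1.00. The direction at 1, 2 and 3 DAP turned under some settings. In these contrasts 1.05%, 1.52%, 4.02% and 3.69% of probe sets were called at 1 to 4 DAP.

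**Figure D2:**
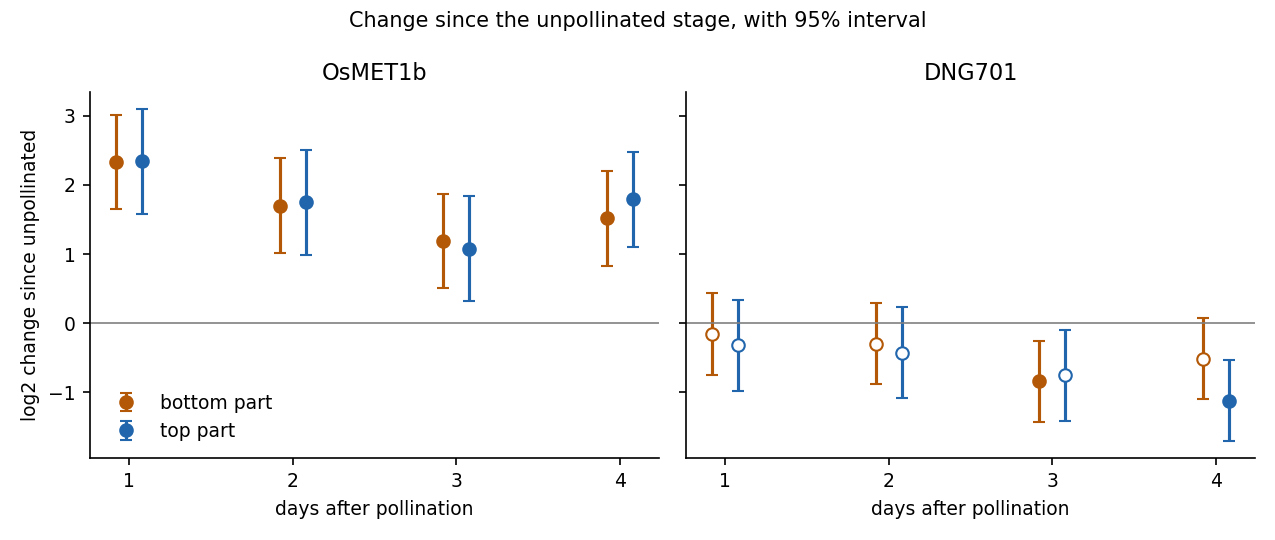
Log2 difference in signal from the unpollinated stage (vertical axis) for OsMET1b and the brighter DNG701 probe set by day after pollination, in the bottom and top parts, with bars of the 95% interval. Filled points passed limma's test at an adjusted p under 0.05 and open points did not: all 8 points of OsMET1b are filled and above 0, and 2 of DNG701 are filled and below 0.

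DNG701 was called lower than unpollinated at 3 DAP in the bottom part and at 4 DAP in the top part. From 1 to 2 DAP and from 2 to 3 DAP its means fell in both parts, as those of OsMET1b did, though no such step was called. DNG701 is a 5-methylcytosine DNA glycosylase of the ROS1 family, also named ROS1c. Its brighter probe set had a mean signal of 3.26 over all arrays, at the 89.5th percentile. Unpollinated arrays of the bottom part read 4.66, 3.76 and 2.93. At 1 DAP they read 3.24, 3.58 and 3.18, within the unpollinated range. At 2 DAP they read 3.12, 3.62 and 2.40. At 3 DAP they read 2.63, 2.51 and 1.23, all below the unpollinated arrays. At 4 DAP they read 2.77, 3.38 and 1.81, which overlapped the unpollinated range again.

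Unpollinated arrays of the top part read 3.96, 7.86 and 3.88 for DNG701, with replicate 2 far above the other two. The arrays at 1 DAP read 4.14 and 3.74, and those at 2 DAP read 4.01 and 3.30. These overlapped the unpollinated range. At 3 DAP they read 2.52 and 3.28, and at 4 DAP they read 2.21, 2.29 and 2.13. Both late groups lay below every unpollinated top array, and the 4 DAP arrays lay closest together of all 10 groups.

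DNG701 in the bottom part fell by 0.84 ± 0.28 (SE) on the log2 scale at 3 DAP, or 1.79-fold (limma adjusted p = 0.0467), when 7.67% of all probe sets were called lower. The bottom call at 3 DAP rested on single arrays. The difference was -0.51 (adjusted p = 0.249) without 3 DAP replicate 3, -0.68 (adjusted p = 0.177) without unpollinated replicate 1 and -0.83 (adjusted p = 0.109) without unpollinated replicate 2. Without the 3 bottom arrays that stood apart it was -0.51 (adjusted p = 0.170). The bottom differences at 1, 2 and 4 DAP were -0.15, -0.30 and -0.51 and were not called (adjusted p = 0.797, 0.549 and 0.232). At those days 5.61%, 6.45% and 8.35% of probe sets were called lower.

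DNG701 in the top part fell by 1.12 ± 0.28 (SE) on the log2 scale at 4 DAP, or 2.17-fold (limma adjusted p = 0.00400), when 16.5% of all probe sets were called lower. That call held when any array of the comparison was left out, with the smallest difference, -0.79 (adjusted p = 0.0385), without unpollinated replicate 2. The difference at 3 DAP was -0.76 ± 0.32 and was not called (adjusted p = 0.0876), although the arrays did not overlap. It became called with quantile normalization (-0.98, adjusted p = 0.0424) and without the 3 bottom arrays that stood apart (adjusted p = 0.0243). At that day 11.1% of probe sets were called lower. Those at 1 and 2 DAP were -0.32 and -0.43 and were not called (adjusted p = 0.546 and 0.391). At those days 7.45% and 8.26% of probe sets were called lower.

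DNG701 was not shown to differ between the parts at any stage. The top-minus-bottom differences were 0.40 unpollinated, 0.23, 0.27 and 0.49 at 1 to 3 DAP, and -0.21 at 4 DAP, with limma adjusted p values from 0.397 to 0.880. The mean over the 5 stages was 0.24, with a 95% interval from -0.05 to 0.52 (adjusted p = 0.197). The change since the unpollinated stage in the top part minus that in the bottom part was -0.17, -0.13, 0.09 and -0.61 at 1 to 4 DAP (adjusted p from 0.518 to 1.00), and no step from one day to the next was called. In order of mean signal the groups ran top unpollinated, top 1 DAP, bottom unpollinated, top 2 DAP, bottom 1 DAP, bottom 2 DAP, top 3 DAP, bottom 4 DAP, top 4 DAP and bottom 3 DAP, and every pair of neighbours overlapped.

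The second DNG701 probe set was dim. Its signals ran from 0.126 to 0.327, with a mean of 0.216 at percentile 41.3 of rice probe sets, below the filter of 0.264 for the tests. Its unpollinated arrays read 0.309, 0.175 and 0.251 in the bottom part and 0.222, 0.327 and 0.263 in the top part. At 4 DAP they read 0.160, 0.242 and 0.126 in the bottom part and 0.188, 0.289 and 0.144 in the top part. The ranges at 4 DAP overlapped the unpollinated ones in both parts, and in the bottom part so did those of the other days. In the top part the arrays at 1, 2 and 3 DAP lay below every unpollinated one. They read 0.187 to 0.198, 0.209 to 0.218 and 0.169 to 0.189. In a fit without the filter these differences were -0.31, -0.21 and -0.37 (limma adjusted p = 0.425, 0.676 and 0.306). The probe set was called in none of the comparisons of that fit, so it adds no called change to those of the brighter probe set.

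The summed signals of the tissue markers also changed over the days. The summed signal of the 5 endosperm markers went from 4.36 to 4.51 in the unpollinated top part to 89.9 to 153.8 at 4 DAP, and from 2.34 to 2.82 to 52.9 to 73.5 in the bottom part. At 1 DAP that sum was 7.23 to 7.62 in the top part and 4.18 to 6.57 in the bottom part, above the unpollinated range in each. The summed signal of the 5 nucellus and ovule markers, among them OsMADS29, a regulator of nucellus degradation, went from 29.1 to 34.6 in the unpollinated top part to 47.8 to 55.6 at 1 DAP. The same sum in the bottom part went from 23.1 to 30.9 to 43.1 to 45.4. The 5 embryo markers with a probe set, of 7 matched, summed to 21.7 to 29.3 in the unpollinated bottom part and 7.07 to 11.3 at 4 DAP. Most of that sum in the unpollinated bottom part was OSH1. Of the 4 tested, OSH1 and OSH6 were called lower in the bottom part at 4 DAP, against 8.35% of all probe sets. ROC1 and OsLFL1 were called higher there, against 12%. The 3 markers of green maternal tissue with a probe set, of 4 matched, summed to 31.0 to 54.8 in the unpollinated top part, 9.32 to 11.9 at 1 DAP and 137.4 to 146.5 at 4 DAP. At 1 DAP in the top part 2 of these 3 were called lower, against 7.45% of all probe sets. In the bottom part that sum was 16.8 to 20.9 unpollinated, 7.41 to 19.2 at 1 DAP and 71.2 to 105.1 at 4 DAP. None of these markers was listed at 0. The part of tissue makeup in the changes of OsMET1b and DNG701 was not tested.

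Among the other DNA methyltransferases, OsCMT3a also rose in both parts. Of the 6 genes matched, CMT1 had no probe set and 5 were tested, and 2 were called higher at each of 1 to 4 DAP in the bottom part, OsMET1b among them, against backgrounds of 7.8%, 7.81%, 8.35% and 12%. The counts called higher in the top part were 3, 3, 1 and 2, with 0, 0, 1 and 1 called lower. Over all probe sets, 9.84%, 10.2%, 14.1% and 18.1% were called higher there and 7.45%, 8.26%, 11.1% and 16.5% lower. OsCMT3a (LOC4347954), a chromomethylase that methylates CHG sites, had group means of 0.486 unpollinated and 3.71 at 1 DAP in the bottom part, and of 1.05 and 6.72 in the top part. It rose by 2.62 ± 0.30 (SE) in the bottom part at 1 DAP (limma adjusted p = 2.78e-06) and by 2.51 ± 0.34 in the top part (adjusted p = 3.42e-05). At 4 DAP it was still higher by 1.07 in the bottom part (adjusted p = 0.0151) and by 0.82 in the top part (adjusted p = 0.0424). Leaving out unpollinated replicate 3 (adjusted p = 0.0613) or 4 DAP replicate 1 (adjusted p = 0.0781) ended the bottom call at 4 DAP. The top call ended without unpollinated replicate 1 or 3, or without any of the 4 DAP arrays, with an adjusted p of up to 0.182.

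Of the remaining methyltransferases, 1 was called higher, 1 lower and 1 in neither direction against the unpollinated stage. OsMET1a (LOC4334435), the other MET1-type gene, had a low mean signal of 0.339 and was called higher in the top part at 1 DAP (0.60, limma adjusted p = 0.0478) and 2 DAP (0.60, adjusted p = 0.0469). The call at 1 DAP was lost when any of the 5 arrays compared was left out, with an adjusted p of up to 0.409. The call at 2 DAP was not checked in this way, nor were those of other listed genes at 2 and 3 DAP, apart from OsMET1b and DNG701. OsDRM2 (LOC4331357), which methylates DNA de novo, was called in no comparison with the unpollinated stage. DRM3 (LOC4337721), a DRM-type gene, fell by 0.69 at 3 DAP (adjusted p = 0.0249) and by 0.87 at 4 DAP (adjusted p = 0.00170) in the top part.

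Genes of RNA-directed DNA methylation, in which small RNAs guide methyltransferases, were called lower at 3 and 4 DAP in the top part, and none was called higher there. All 3 genes matched were tested, and all were called lower in the top part at 3 DAP, against a background of 11.1%, and at 4 DAP, against 16.5%. Only OsAGO4a was called lower in the bottom part at 3 DAP, against 7.67%, and 2 were at 4 DAP, against 8.35%. OsAGO4b (LOC4335025), an Argonaute that binds such small RNAs, fell by 1.19 ± 0.19 (SE) on the log2 scale in the top part at 4 DAP (limma adjusted p = 5.64e-05). OsAGO4a (LOC4324438), its close relative, fell by 0.75 (adjusted p = 0.00473). OsRDR2 (LOC4336092), the RNA polymerase that makes the double-stranded precursors, fell by 0.55, and that call was lost without unpollinated replicate 2 (adjusted p = 0.0993) or 4 DAP replicate 2 (adjusted p = 0.0962). In the bottom part at 4 DAP, OsAGO4a fell by 0.63 (adjusted p = 0.0253) and OsAGO4b by 0.58 (adjusted p = 0.0316). Both bottom calls were lost without unpollinated replicate 1 or 2 or 4 DAP replicate 3, and the 2 became 0 without any of these.

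DNA glycosylases other than DNG701 were not analysed here, because none of the other names searched was matched in the gene table. Of the repair genes that act after a glycosylase, OsPCNA (LOC4331062), the sliding clamp shared with replication, rose by 1.85 in the bottom part at 1 DAP (limma adjusted p = 8.58e-04) and by 1.73 in the top part (adjusted p = 0.00397). The top call was lost without 1 DAP replicate 1 (adjusted p = 0.0894). At 4 DAP it rose by 1.05 in the bottom part, a call lost without unpollinated replicate 3 (adjusted p = 0.204) or any of the 4 DAP arrays. Polycomb genes, whose proteins act together in a complex that methylates histones, were represented by MSI1 (LOC4333540) and EZ1 (LOC4332612). MSI1 was higher by 0.95 in the bottom part at 1 DAP (limma adjusted p = 0.00891), and EZ1 fell by 0.53 in the top part at 1 DAP (adjusted p = 0.0440). The MSI1 call was lost without unpollinated replicate 3 (adjusted p = 0.0772), and the EZ1 call without unpollinated replicate 1 or 2 or either 1 DAP array (adjusted p up to 0.201). JMJ706 (LOC4349499), a histone demethylase, was called in none of the 8 comparisons. XRCC1, a scaffold of single-strand break repair, was not called in any of them either.

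**Figure D3:**
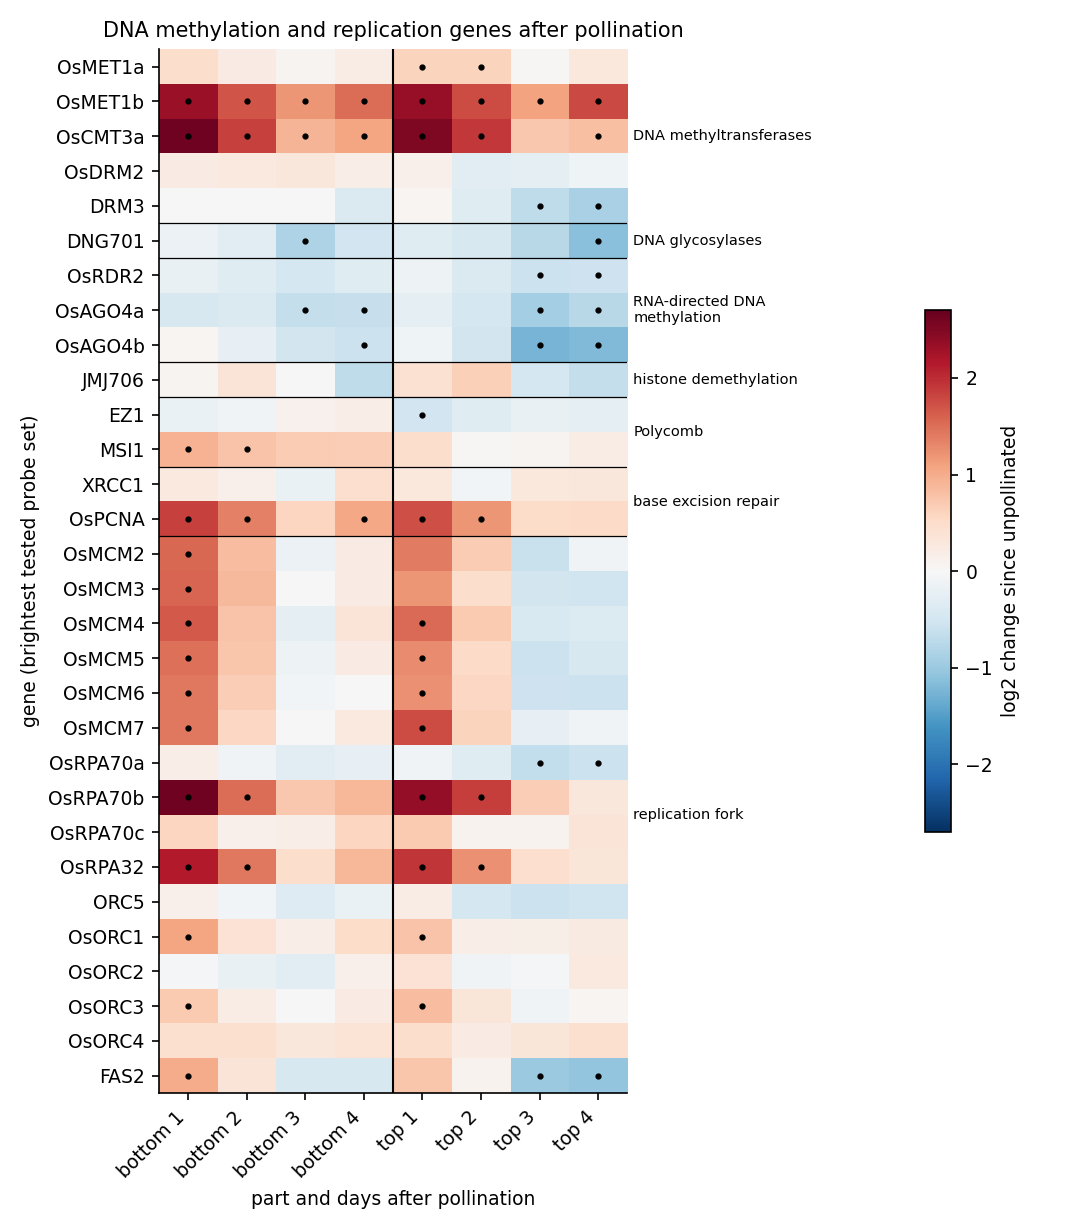
Log2 difference from the unpollinated stage in the bottom and top parts at 1 to 4 DAP for the methyltransferase, glycosylase, RNA-directed DNA methylation, chromatin, repair and replication genes tested, in colour from lower to higher, with a dot where limma's adjusted p was under 0.05. OsMET1b, OsCMT3a and OsPCNA carry dots on the higher side at 1 and 2 DAP in both parts, and the 3 RNA-directed methylation genes on the lower side in the top part at 3 and 4 DAP.

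At the replication fork, where MET1-type enzymes act, 12 of the genes tested in the bottom part and 9 in the top part were called higher at 1 DAP, and none at 3 DAP. Of 18 genes matched, 17 were tested, and the 12 in the bottom part stood against a background of 7.8%, with a median difference of 1.42. The 9 in the top part stood against 9.84%, with a median of 1.18. That top count was 1 without 1 DAP replicate 1, 5 without unpollinated replicate 3 and 4 when only the arrays compared were fitted. At 2 DAP 3 were called higher in each part, against 7.81% in the bottom part and 10.2% in the top part. At 3 DAP none was called higher in either part, with medians of -0.02 and -0.22, and 2 were called lower in the top part, against 11.1%. OsMET1b was called higher in both parts at 3 DAP, but each of those calls was lost without single arrays. Whether its change differed from that of the replication fork genes was not tested. OsRPA70b (LOC4332052), a subunit of the single-strand binding protein, rose at 1 DAP by 2.63 ± 0.33 (SE) in the bottom part and 2.37 ± 0.37 in the top part. OsRPA32 (LOC4331236), another subunit, rose by 2.15 and 1.94, and the top call was lost without 1 DAP replicate 1 (adjusted p = 0.0749). At 4 DAP in the top part, FAS2 (LOC4344464), a subunit of chromatin assembly factor, fell by 1.06 and OsRPA70a (LOC4330902) by 0.57. The OsRPA70a call was lost without unpollinated replicate 1 or 2, or 4 DAP replicate 2 or 3, with an adjusted p of up to 0.162.

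Likeness of course was measured as Pearson's r over the 10 group means of log2(signal + 0.13), with each of 15272 other tested genes, and these points share their arrays, so no p is given. For OsMET1b, the 5 genes with a symbol that had the highest r were KIN10B (LOC4335606) at 0.986, CycB2;2 (LOC4342121) at 0.971, KIN5C (LOC9271005) at 0.964, OSTB-34 (LOC4326917) at 0.961 and KIN7L (LOC4350714) at 0.960. They ranked 4, 20, 27, 31 and 33 among all genes compared, and the genes between them had no symbol. KIN10B, KIN5C and KIN7L are named as kinesins, CycB2;2 is a B-type cyclin of mitosis and OSTB-34 is a beta-tubulin. In all, 243 genes (1.59%) reached an r of 0.9.

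For DNG701, the 5 most alike genes with a symbol were PARP1 (LOC4343013) at 0.952, OsSHOC1 (LOC4330127) at 0.950, OsER2 (LOC4330905) at 0.943, DL (LOC4332058) at 0.933 and OsTBL5 (LOC4334575) at 0.932. They ranked 9, 10, 20, 34 and 38 among all genes compared. PARP1 is a poly(ADP-ribose) polymerase of the DNA damage response, OsSHOC1 acts in meiotic crossover formation, and DL is the YABBY gene that specifies the rice carpel. Here 119 genes (0.779%) reached an r of 0.9. OsMET1b and DNG701 themselves had an r of -0.137 over the 10 groups.

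**Figure D4:**
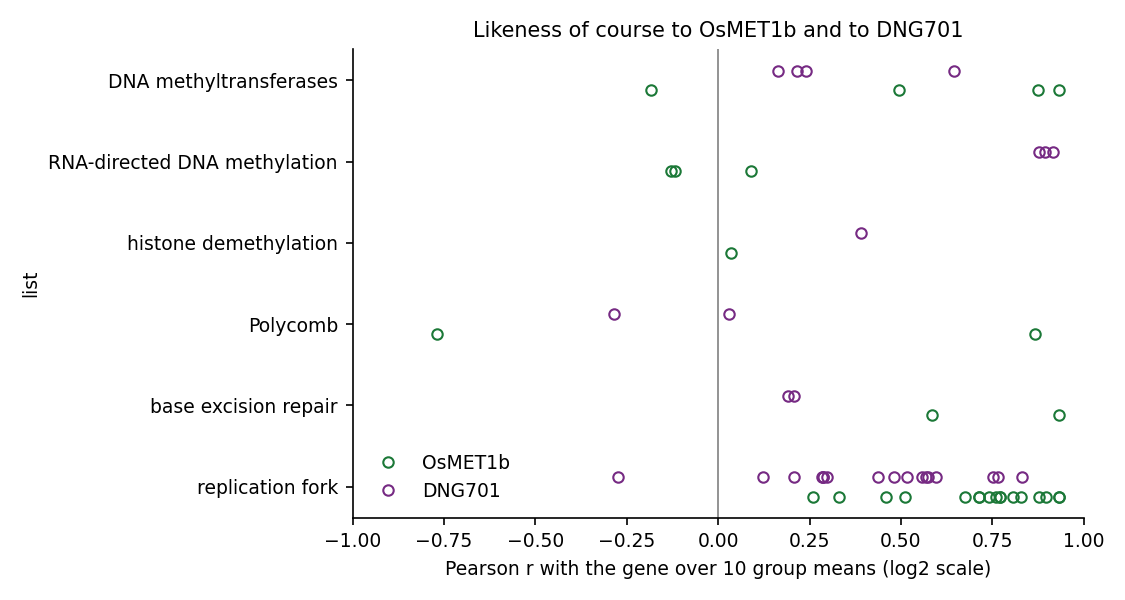
Pearson's r over the 10 group means between OsMET1b or DNG701 and each gene of the methylation, chromatin, repair and replication lists (horizontal axis), with 1 point per gene and lists in rows. Among these genes OsMET1b has its highest r with OsPCNA (0.933), OsORC4 (0.932) and OsCMT3a (0.931). DNG701 is nearest to the 3 RNA-directed methylation genes (0.877 to 0.917).

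The lists differed in which of the genes they resembled, and members of a list also differed among themselves. OsMET1b had an r of 0.931 with OsCMT3a and 0.875 with OsMET1a, but 0.494 with OsDRM2 and -0.184 with DRM3. Its r was 0.933 with OsPCNA and 0.585 with XRCC1, and 0.866 with MSI1 and -0.768 with EZ1. Over the 17 replication fork genes it had a median of 0.761, in a range from 0.259 to 0.933. With the 3 RNA-directed methylation genes its r ran from -0.129 to 0.0889. DNG701 had an r of 0.877 to 0.917 with those 3 genes. With the replication fork genes it had a median of 0.481, in a range from -0.275 to 0.830. These values describe the 10 groups of this series and carry no test.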

How the data were processed

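The authors deposited 1 signal intensity per probe set and array, from Affymetrix software GCOS 1.3 per the submitters' processing notes. In these deposited intensities each array's 75th percentile was 1. How GCOS summarised probes and subtracted background is not given here, nor are detection calls. The number of arrays limits the precision. Of 57381 probe sets, 187 controls were left out, and 22436 had 1 gene in the platform's annotation, 95 had several and 34663 had none. Symbols were matched by Entrez number in RefSeq's gene table, whose assembly may differ, so no coordinates are given.

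With R 4.3.3 and limma 3.58.1, log2(intensity + 0.13), the pseudocount being the 20th percentile, was fitted with 10 group means (17 residual degrees of freedom, intensity trend). A probe set was tested where its mean was over 0.264, the overall median (29301 of 57194), 2-sided, with Benjamini-Hochberg adjustment in each comparison. The fit was tested on simulated data. A gene with several probe sets was represented by its brightest. Figures used Python 3.11.15 and matplotlib 3.10.9.

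Members and lists were chosen with earlier results of these data known. The text names all probe sets of both genes, all matched methyltransferases and glycosylases, up to 2 called genes of each other list with the largest changes at 1 and 4 DAP, and the 5 genes with a symbol most like each gene; other list members named were chosen after their values were seen. The list names searched numbered 136. Alternatives changed the pseudocount, filter, normalization, trend, 18S covariate, arrays and replicate block.

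Replicate numbers are shared between groups. Deviations of same-numbered arrays from their group means correlated at 0.254 to 0.530 for the bottom part at 3 DAP against unpollinated, and at 0.179 to 0.592 at 4 DAP, so the numbers pair the arrays there. The printed values come from the fit without the replicate block, which changed neither gene's call in those 2 comparisons. In the other comparisons with the unpollinated stage that have 3 pairs, not every pair was above 0.1, with -0.258 to 0.271 in the bottom part at 1 DAP and -0.0513 to 0.335 in the top part at 4 DAP. Every pair was above 0.1 in the bottom steps from 2 to 3 DAP (0.286 to 0.705) and from 3 to 4 DAP (0.623 to 0.748). The same held, with 2 pairs, for top against bottom at 3 DAP (0.132 to 0.315). In the top step from 1 to 2 DAP both groups hold 2 arrays, so both pairs give the same value by construction (0.465). That value cannot show whether the numbers pair those arrays. These comparisons too were printed without the block.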

Additional observations from a re-analysis of the deposited data

How the results depend on the processing

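The increases of OsMET1b at 1, 2 and 4 DAP and the decrease of DNG701 in the top part at 4 DAP kept direction and call under all 11 alternatives and without any single array. At 3 DAP the calls depended on the setting. For OsMET1b in the bottom part, fitting only the arrays compared gave 1.19 (limma adjusted p = 0.133), and leaving out single arrays gave 0.83 to 1.40. Its top call was lost without the filter (1.08), with quantile normalization (0.97), with the 18S covariate (1.11) and with only the arrays compared (1.08), and single arrays gave 0.93 to 1.36. For DNG701 in the bottom part the call was lost with 4 times the pseudocount (-0.73), without the filter (-0.84), without the 3 bottom arrays that stood apart (-0.51) and with only the arrays compared (-0.84), and single arrays gave -1.02 to -0.51. DNG701 in the top part became called at 3 DAP with quantile normalization (-0.98), with the replicate block (-0.91, adjusted p = 0.00797) and without the 3 arrays (-0.76). The replicate block changed no other call of these genes. Differences near 0 and never called turned direction. For the change of OsMET1b in the top part minus that in the bottom part, this was -0.020 at 1 DAP with the smaller pseudocount, -0.033 with quantile normalization and -0.080 with the replicate block, and at 2 DAP -0.031 with quantile normalization, -0.043 with the block and -0.26 without the 3 arrays. For DNG701 it was -0.062, -0.074 and -0.24 at 3 DAP under the last 3 of these settings. Leaving out single arrays gave -0.28 to 0.37, -0.26 to 0.41 and -0.33 to 0.25 for OsMET1b at 1, 2 and 3 DAP, and -0.34 to 0.16, -0.30 to 0.19 and -0.24 to 0.41 for DNG701. The DNG701 difference from unpollinated at 1 DAP became -0.32 to 0.00224 in the bottom part and -0.49 to 0.00537 in the top part, and its step from 1 to 2 DAP became -0.27 to 0.014 in the bottom part (0.014 without the 3 arrays) and -0.24 to 0.027 in the top part. The cause was not tested. Counts of probe sets called moved by over 1.5 times in 60 of 264 settings and in 57 of 175 where a single array was left out (from 5066 to as few as 1882 in the top part at 1 DAP, and from 1575 to between 70 and 3532 between the parts at 3 DAP), so the background shares move with single arrays too.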
